A study of Mus musculus with 2 samples.

Results

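C1q-positive barcodes were described in a single-cell RNA library of kidney cells from FVBN mice, labelled sham. A barcode marks the contents of 1 droplet, ideally 1 cell. The cells carried PDGFRa+b+ in their label, the PDGF receptors found on kidney fibroblasts, pericytes and related stromal cells. The other library came from kidney taken 10 days after unilateral ureteral obstruction (UUO), an operation that leads to fibrosis, and both groups share strain, tissue, receptor label and the 10x Chromium version 2 3′ chemistry. The labels give no ages or numbers of animals, and each group is 1 library. Barcodes entered with 500 or more unique molecular identifiers (UMIs, 1 per captured transcript), 300 or more genes and no more than 20% mitochondrial UMIs. Of the retained barcodes, those with C1qa, C1qb and C1qc all above 0, with at least 1 of Tyrobp, Fcer1g, Csf1r and Ptprc above 0, and with Pecam1 and Epcam both at 0 were taken. In the library labelled sham 290 of 10656 retained barcodes met the rule, a share of 2.72% (exact 95% interval 2.42% to 3.05%), of 11708 retained in both libraries. In the library labelled UUO 1 of 1052 met it, 0.0951% (0.00241% to 0.528%).

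C1q is the recognition part of the first complement component. It is built from 3 kinds of chain, encoded by C1qa, C1qb and C1qc, and binds immune complexes and dying cells. Most complement proteins come from the liver, whereas C1q is made mainly by tissue macrophages and some dendritic cells. Kidney macrophages lie between the tubules, sample filtered antigens, present them on MHC class II, and remove dead cells. Some descend from cells seeded before birth and others from blood monocytes, which bring the chemokine receptor Ccr2.

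The 3 chain genes lie side by side on the minus strand of mouse chromosome 4 (GENCODE M21, GRCm38, the build mm10). C1qa spans chr4:136895917-136898803, C1qb chr4:136880129-136886187 and C1qc chr4:136889804-136893065, so that the cluster covers 18675 bases, and no other annotated gene overlaps them. Because the 3 genes choose the barcodes together, the stretches before 2 of their starts are shown with that of Lyz2, the lysozyme gene of myeloid cells. They come from RefSeq (GRCm38.p6) on the gene's own strand. Each begins 250 bases before the RefSeq start, and bases inside the gene's GENCODE span were left off. Capitals mark ACTTCCT, the reverse complement of AGGAAGT, that is, AGGAAGT read on the other strand. AGGAAGT holds the GGAA core bound by the ETS family of factors, to which PU.1 (gene Spi1) of macrophages belongs.
C1qb, chr4:136886201-136886450: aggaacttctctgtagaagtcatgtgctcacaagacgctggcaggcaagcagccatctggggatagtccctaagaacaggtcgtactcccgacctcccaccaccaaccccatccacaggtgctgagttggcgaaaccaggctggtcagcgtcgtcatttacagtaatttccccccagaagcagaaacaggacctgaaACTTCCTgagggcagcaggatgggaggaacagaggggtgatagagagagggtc
C1qc, chr4:136893066-136893164: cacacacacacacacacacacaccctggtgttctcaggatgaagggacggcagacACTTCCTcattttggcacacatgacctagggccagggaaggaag
Lyz2, chr10:117282322-117282522: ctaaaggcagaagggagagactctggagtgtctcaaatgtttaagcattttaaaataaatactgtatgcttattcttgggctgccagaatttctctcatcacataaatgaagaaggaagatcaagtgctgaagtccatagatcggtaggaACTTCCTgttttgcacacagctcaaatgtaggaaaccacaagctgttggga
The match begins 53 bases before the RefSeq start in C1qb, 195 in C1qc and 100 in Lyz2. Over windows of 300 bases, 250 before to 50 after the start, and on both strands, 3072 of 32851 RefSeq promoters (9.35%) hold AGGAAGT. Of the 25 genes of the rule and of the macrophage core list, 19 were matched in the table and 8 of these hold it. A match describes letters in a window, not a bound site.

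The library labelled sham held 10812 barcodes with 85359332 UMIs and the library labelled UUO 1291 with 6023072. Retained barcodes had medians of 7824 and 4154 UMIs, so that the chance to see all 3 chains differs between the libraries. With each barcode thinned to 1000 UMIs, 187 of 10328 barcodes labelled sham (1.81%, 1.56% to 2.09%) and 1 of 916 labelled UUO (0.109%) met the rule, after 328 and 136 shallower barcodes were left out. The 2 libraries share 13 retained barcode sequences, none of them a C1q-positive barcode. In stromal barcodes 2 injury genes ran against the labels: Spp1, the gene of osteopontin, stood at 12784 CPM (UMIs per 1000000 UMIs of the summed barcodes) under the sham label against 221 CPM under the UUO label, and Timp1 at 704 against 74.5 CPM. Postn (77.1 and 156 CPM) and Ccn2 (178 and 697 CPM), matrix genes of fibrosis, were higher in the library labelled UUO. With 1 library a group, nothing was tested between groups, and the intervals given hold only the error of counting.

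The rule genes set the membership, and their values describe the choice. Summed over the 3 chains, the C1q-positive barcodes held from 3 to 253 UMIs with a median of 24.5. C1qa ranged from 1 to 108 UMIs a barcode with a median of 12, C1qb from 1 to 80 with a median of 8, and C1qc from 1 to 76 with a median of 8. Tyrobp, an adaptor of activating receptors, was present in 258 of 290, Fcer1g, the Fc receptor gamma chain, in 247, Csf1r, the receptor for the macrophage growth factor CSF1, in 220, and Ptprc (CD45, the surface protein of all leukocytes) in 102. All 4 were present in 98 barcodes and only 1 of the 4 in 42. Just inside the rule, 8 barcodes had 1 UMI of each chain, with a median of 4.12% of their UMIs from 10 stromal markers. Just outside, 108 barcodes had 2 of the 3 chains and met the other conditions, with a median stromal share of 3.97%. A further 52 barcodes with all 3 chains, holding up to 241 C1q UMIs, were left out for Pecam1 or Epcam, 30 for having none of the 4 leukocyte genes and 5 for both.

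The name macrophage was checked against 18 core genes that the rule did not use, among them Lyz2, Adgre1 (F4/80), Cd68, Cd14 and the Fc receptor genes. At least 3 of the 18 were present in 279 of the 290 barcodes and in 7.76% of 7727 stromal barcodes (Col1a1, Col1a2 and a PDGF receptor gene above 0, Pecam1 and Epcam at 0, C1q-positive barcodes left out). They were also present in 32 of 46 leukocytes with little C1q (69.6%, defined below). This count thus sets the barcodes apart from stromal cells more than from other leukocytes. In those leukocytes a median of 0.279% of UMIs came from the core genes. The C1q-positive barcodes were not of 1 kind, however. The summed C1q count sorted them into 134 with 30 or more UMIs, 81 with 10 to 29 and 75 under 10, which are ranges of a count and not cell types. Of all, 16 lay between 25 and 34 UMIs and 27 between 8 and 11, near the limits.

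In the 134 barcodes with 30 or more C1q UMIs the macrophage name held. A median of 2.28% of their UMIs came from the core genes and 0.561% from the stromal markers. The latter is near the 0.485% of 46 leukocytes with little C1q (Ptprc and another leukocyte gene above 0, fewer than 3 chains, not stromal), and well under the 4.07% of stromal barcodes. Col1a1, Col1a2, Pdgfra and Pdgfrb are among the 10 markers, so the definitions of leukocytes and stromal barcodes partly fixed those values. In the 75 barcodes under 10 C1q UMIs the order was the other way, with 0.126% from core genes and 3.63% from stromal markers, and 52 of the 75 met the stromal definition too, as did 42 of 134 in the high range and 24 of 81 between. At least 4 of the 10 stromal markers were present in 131 of the 134 of the high range. The 81 between stood at 1.11% and 1.40%. The low range was not shallower: the median depth was 7003 UMIs under 10, 1853 from 10 to 29 and 6067 at 30 or more.

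Measured against the stromal barcodes' own spread, 190 of the 290 had a stromal share under the stromal barcodes' 5th percentile (2.17%), namely 121 of 134, 53 of 81 and 16 of 75 from the high to the low range. A core share above the stromal barcodes' 99th percentile (0.117%) was found in 247, namely 134, 75 and 38. Both shares were high in 60 barcodes, and 40 had a stromal share at or above the first limit and a core share at or below the second. The highest doublet scores, which point to 2 cells in 1 droplet, were held by 55 of the 290 (19.0%) and by 7.87% of stromal barcodes. By range these were 19, 22 and 14 barcodes from high to low. What doublets, free RNA and cells that express both programs each add was not tested.

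**Figure D1:**
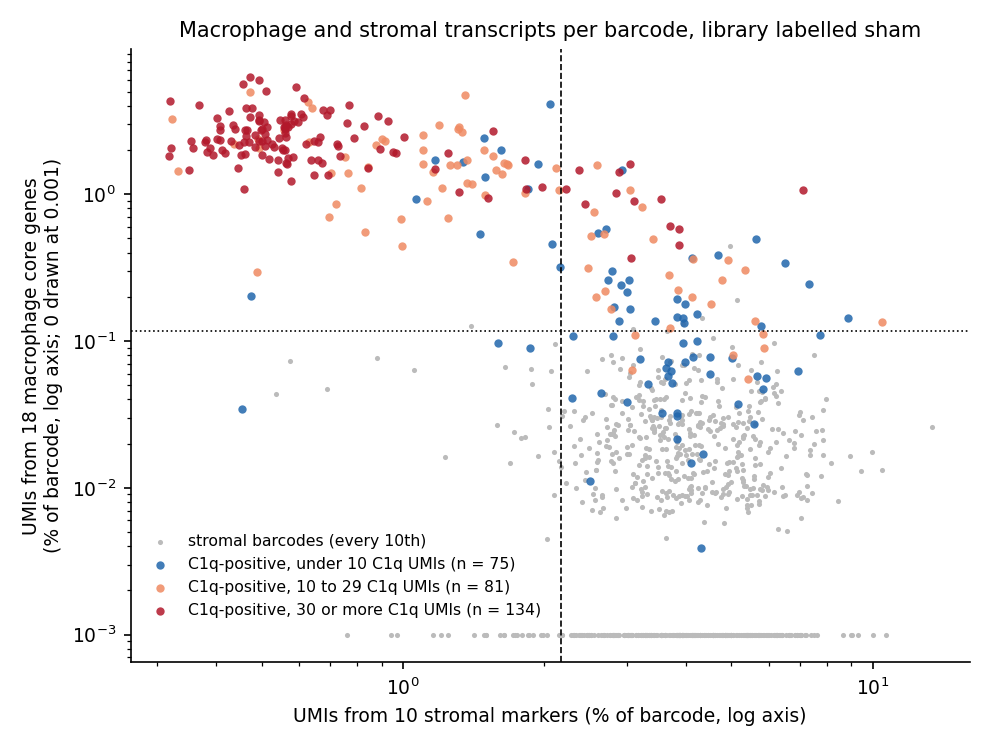
Each point is 1 barcode of the library labelled sham, with the percent of its UMIs from 10 stromal markers (x axis, log) and from 18 macrophage core genes (y axis, log). The dashed line is the stromal barcodes' 5th percentile of stromal share (2.17%) and the dotted line their 99th percentile of core share (0.117%). Barcodes with 30 or more C1q UMIs sit mainly at the upper left, and those under 10 mainly among or just above the stromal barcodes at the lower right.

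The ranges were set by the C1q count, so C1q after thinning describes the choice only. After thinning to 1000 UMIs the high range kept a median of 17.5 C1q UMIs, from 2 to 41. The low range kept a median of 1, and 28 of its 67 barcodes of sufficient depth had none. The high range held 48.5% of the UMIs of the C1q-positive barcodes but 89.3% of their C1q and 86.4% of their core gene UMIs, while the low range held 33.3% of the UMIs and 53.0% of the stromal marker UMIs. Values of the high range are given beside many of the sums over all 290.

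C1q transcripts were also found outside the rule. C1qa was present in 11.7% of stromal barcodes at 16.2 CPM, C1qb in 9.90% at 13.5 CPM and C1qc in 9.07% at 11.9 CPM, while all 3 were present in 0.362%. The stromal set leaves out the 118 C1q-positive barcodes that met the stromal definition. The rule thus lowered these shares, the last the most. The median depth was 8532 UMIs in stromal barcodes and 5715 in the C1q-positive barcodes. The proportions of the chains differed somewhat: C1qa made up 41.8% of C1q UMIs in the high range (41.0% to 42.6%), 35.7% under 10 (31.3% to 40.4%) and 39.0% in stromal barcodes (37.2% to 40.8%). The rule asks for 1 UMI of each chain, which brings the shares closer together where C1q UMIs are few. Per C1q UMI, Cd74 gave 1.91 UMIs in the high range, 2.09 under 10 and 4.36 in stromal barcodes, and Ctss gave 0.217, 0.222 and 0.452. Apoe, which stromal cells make too, gave 2.07, 5.55 and 41.7. For Ctss the intervals of the high and low ranges overlapped (0.209 to 0.225 and 0.177 to 0.277), while Lyz2 gave 0.716 and 0.935 with intervals that did not (0.699 to 0.734 and 0.816 to 1.07). The C1q count chose the barcodes and cut the ranges, so ratios per C1q UMI partly follow from that choice. Whether intervals overlap therefore decides nothing about the ranges.

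Set against stromal barcodes, the 15 genes with the highest ratios in the C1q-positive barcodes included Cd74, H2-Aa and H2-Ab1 of antigen presentation, the chemokines Ccl3, Ccl4 and Ccl12, the protease gene Ctss and the Fc receptor gene Fcgr3. Cd74, the invariant chain that guides MHC class II, stood at 17422 CPM against 181 CPM in stromal barcodes, a ratio of 96.2 (94.2 to 98.2). Ctss, the cathepsin that trims that chain, stood at 1982 against 18.8 CPM, and Lyz2 at 6551 against 79.6 CPM. These stood in the high range at 31084, 3536 and 11663 CPM, and in the low range they stood at 1427, 152 and 636 CPM. Of 9042 genes with at least 10 CPM on either side, 546 (6.04%) stood 2-fold or more above and 159 (1.76%) 2-fold or more below the stromal level after 5 CPM were added to each side. In the high range 860 of 9224 (9.32%) were higher and 1638 (17.8%) lower. The rule chose these barcodes in the same cells, so the counts are a description without a test. Genes under 10 CPM in stromal barcodes passed the minimum through the C1q-positive barcodes alone, so a higher level was fixed by the filter. That applies to the list counts below as well, and the shares over all genes are their background.

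**Figure D2:**
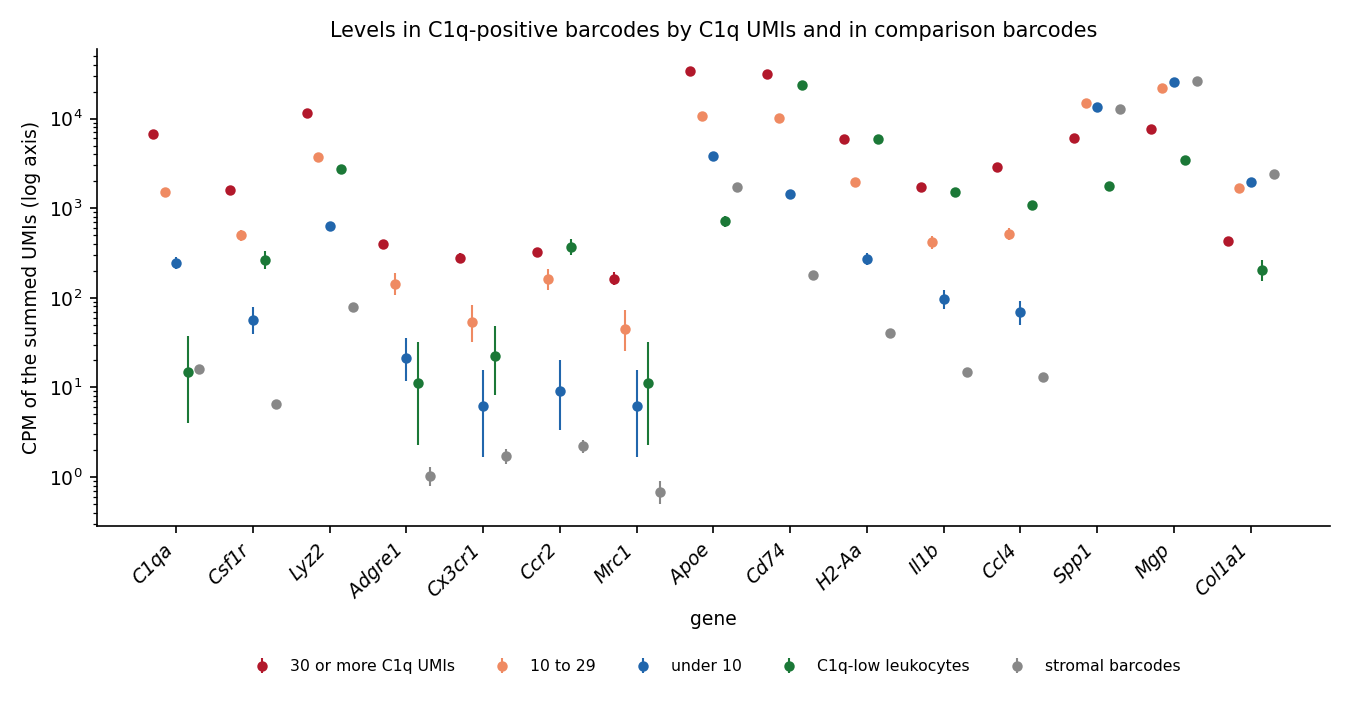
CPM of the summed UMIs (y axis, log) of 15 genes in the 3 ranges of C1q UMIs, in C1q-low leukocytes and in stromal barcodes of the library labelled sham. Points are levels and bars exact Poisson 95% intervals. Macrophage genes step down from the high to the low range, while Spp1, Mgp and Col1a1 of the stromal cells step up.

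Of the 18 macrophage core genes 17 were at least 2-fold higher than in stromal barcodes, with a median log2 ratio of 4.98 beside -0.18 over all genes compared. Of the 17, only Cd14, Lyz2, Ctss and Cd53 reached 10 CPM in stromal barcodes. The others passed the minimum of 10 CPM through the C1q-positive barcodes alone, so that a higher level was fixed by the filter. Fcgr3, an activating IgG receptor, stood at 406 CPM in 187 of 290 barcodes against 3.54 CPM, and in the high range it was present in 133 of 134. Ms4a7, a membrane protein of mature macrophages, stood at 373 against 2.04 CPM. Adgre1 stood at 228 against 1.02 CPM and was present in 117 of 134 barcodes of the high range and 12 of 75 of the low one. The core gene that was not higher was Mertk, a receptor for dying cells, at 16.8 CPM in the C1q-positive and 16.7 CPM in the stromal barcodes. Among 15 genes picked for the highest ratios were also Rgs1, a regulator of G protein signalling (557 against 4.70 CPM), Cd72 (335 against 2.24 CPM), Wfdc17 (906 against 11.9 CPM) and Bcl2a1b, of a survival gene family with near-identical copies whose counts can be shared among them (431 against 4.66 CPM). C1q-low leukocytes had Rgs1 at 380 CPM, Cd72 at 25.8 CPM, Wfdc17 at 974 CPM and Bcl2a1b at 330 CPM.

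Transcription factors of the myeloid line were less uniform. Spi1 stood at 185 CPM against 1.88 CPM and was present in 113 of 134 barcodes of the high range. Of 11 factors compared 4 were higher, Spi1, Irf8 and Irf5 among them, and none lower, with a median log2 ratio of 0.64. The high range had 6 of 12 higher and 1, Id3, lower. Maf, Cebpb, Zeb2 and Id3 were made by stromal cells as well: Zeb2, for example, stood at 245 CPM in the high range, 378 under 10 and 356 in stromal barcodes. Spic, the factor of iron-recycling macrophages of the spleen, was present in 11 of 290 barcodes, at 8.68 CPM.

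Antigen presentation was prominent. Of 10 MHC class II and costimulation genes compared 9 were higher, with a median log2 ratio of 4.37. H2-Aa stood at 3355 CPM against 40.1 CPM and H2-Ab1 at 5359 against 79.8 CPM. Within the high range H2-Aa ran from 0 to 117 UMIs a barcode with a median of 43 and was present in 129 of 134. Ciita, the switch for these genes, was present in 28 of 134 barcodes of the high range and none of the 75 of the low one (37.9 CPM in the former). Cd86, a costimulatory ligand for T cells, stood at 110 CPM against 0.576 CPM, whereas Cd80 had 1 UMI in all 290 and Cd40 was at 20.9 CPM, near the 26.1 CPM of stromal barcodes.

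Of 14 chemokine genes compared 10 were higher than in stromal barcodes, with a median log2 ratio of 3.42. Ccl3 and Ccl4, which draw monocytes and T cells, stood at 697 against 4.65 CPM and 1510 against 13.1 CPM. In C1q-low leukocytes Ccl3 stood at 88.6 CPM and Ccl4 at 1077 CPM. Ccl12, a mouse ligand of CCR2, stood at 733 against 4.59 CPM, and Cxcl2, which draws neutrophils, at 830 against 20.5 CPM. These genes were uneven among barcodes. In the high range Ccl4 ran from 0 to 161 UMIs with a median of 7, and Cxcl2 was present in 66 of 134. For Ccl7, also a ligand of CCR2, 1 barcode gave 22.6% of the high range's UMIs.

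Of the cytokine genes Il1b, the gene of interleukin 1 beta, had the highest level. Il1b stood at 954 CPM against 14.8 CPM and was present in 97 of 134 barcodes of the high range and 24 of 75 of the low one. C1q-low leukocytes held Il1b too, at 1517 CPM, beside 1744 CPM in the high range. Tnf (28.1 against 0.454 CPM), Osm, the gene of oncostatin M (91.4 against 0.773 CPM), and Nlrp3, a sensor of the inflammasome (19.9 against 0.348 CPM), were also higher, and in the low range Tnf and Nlrp3 had no UMI. Il6 was lower in the high range, at 25.3 CPM, than in stromal barcodes, at 128 CPM. Il10 had 1 UMI in 290 barcodes. In all 8 of 14 genes compared were higher, but Areg rested on 1 barcode with 87.9% of its 33 UMIs. Tgfb1 was level, at 255 CPM and 258 CPM.

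Complement genes other than C1q split by role. The receptors C3ar1 (204 against 0.924 CPM) and C5ar1 (131 against 0.863 CPM), the integrin chain Itgb2 (56.1 against 0.773 CPM) and properdin, Cfp (173 against 3.62 CPM), were higher. The proteases that complete C1, C1ra and C1s1, stood at 22.6 and 35.8 CPM in the high range, at 121 and 173 CPM in the low range, and at 110 and 175 CPM in stromal barcodes. Serping1, the gene of the C1 inhibitor, followed the stromal side likewise, with 543 CPM in the high range against 2523 CPM. C3 was low on both sides, at 15.3 and 33.3 CPM. Of 12 compared 4 were higher and none lower over all 290, while 4 were higher and 5 lower in the high range.

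Lysosome genes were higher in part. Of 20 compared 8 were at least 2-fold higher, with a median log2 ratio of 0.67, and 11 in the high range. Ctsc, a cathepsin that activates other proteases, stood at 954 against 72.2 CPM and Ctsb at 1765 against 858 CPM. Ctsl, a cathepsin that stromal cells make at 1707 CPM, stood at 719 CPM in the high range. Of 8 iron genes compared 3 were higher over all 290, and 6 were higher and 1 lower in the high range. The 3 were Hmox1, which breaks down heme (125 against 41.4 CPM), Slc11a1, the phagosomal metal transporter (39.3 against 4.51 CPM), and Trf (459 against 58.8 CPM). Slc40a1, the iron exporter, stood at 23.1 CPM in the high range and 75.03 CPM in stromal barcodes.

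Genes of resident macrophages were present in part only. Of 13 compared with stromal barcodes 8 were higher, with a median log2 ratio of 2.03. Apoe, a lipid carrier, stood at 19572 CPM against 1735 CPM, and in the high range it ran from 6 to 1012 UMIs a barcode with a median of 212.5. Cx3cr1, the fractalkine receptor of resident macrophages and monocytes, stood at 146 CPM against 1.70 CPM and was present in 107 of 134 barcodes of the high range. Its annotated span overlaps other genes, Csrnp1 on the same strand among them, so its count is uncertain. Mrc1, the mannose receptor, stood at 89.8 against 0.682 CPM, Pf4 at 179 against 3.77 CPM, Trem2, a lipid-sensing receptor, at 91.4 against 1.97 CPM and Stab1, a scavenger receptor, at 52.1 against 2.21 CPM.

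Other genes of that list were missing. Lyve1, Timd4 and Vsig4, which mark long-lived resident macrophages in several tissues, had no UMI in 290 barcodes, which at a limit of 3 counts allows up to 1.03% of barcodes with a UMI (1.26% as the exact 95% upper limit). For the 134 of the high range alone the exact upper limit is 2.72%. Vsig4 had no UMI in stromal barcodes or C1q-low leukocytes either. Cd163, a hemoglobin scavenger receptor, and Fcna had 1 UMI each, and Folr2 was present in 8 barcodes. Marco, another scavenger receptor, also had none. Of the monocyte genes Ccr2 was present in 114 barcodes, at 188 CPM against 2.21 CPM, while Ly6c2 was present in 5 and Chil3 in 2. Plac8 stood at 167 CPM in the high range, below the 676 CPM of stromal barcodes. Of 8 monocyte genes compared Ccr2 and Spn were higher. The same 2 of 7 were higher in the high range, where Plac8, Hp and Ace were lower. The median Ccr2 count in the high range was 1 UMI, from 0 to 19, in 85 of 134 barcodes.

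Interferon, stress and cell cycle genes were compared next. Of 13 interferon response genes 1 was higher over all 290 (Bst2, 266 against 125 CPM), with a median log2 ratio of 0.43. In the high range 4 of 13 were higher, beside 9.32% of all genes: Bst2, Ifi27l2a (965 against 448 CPM), Irf7 (76.8 against 28.9 CPM) and Ly6e (563 against 254 CPM). Of 15 immediate early and heat shock genes, which dissociation with enzymes can induce, 2 were higher (Atf3, 370 against 105 CPM, and Nfkbia, 459 against 222 CPM), with a median of -0.13. Fos stood at 2501 and 2952 CPM and Hspa1a at 457 and 500 CPM, so both kinds of barcode carried them. Of 9 cell cycle genes compared 3 were higher, beside 6.04% of all genes, each in few barcodes and at low levels. They were Birc5 at 29.1 against 8.44 CPM in 10 barcodes, Cdc20 at 21.4 against 6.44 CPM in 15 and Ube2c at 17.9 against 4.84 CPM in 14. Of 10 compared in the high range 2 were higher, Birc5 and Ube2c. Among microglia-associated genes Gpr34 (35.7 against 0.212 CPM) and P2ry12 (11.7 against 0.0909 CPM) were higher, Sall1 had no UMI, and Tmem119, Olfml3 and Sparc followed the stromal side (55.8, 243 and 1301 CPM in the high range against 178, 1044 and 6062 CPM).

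Genes linked to lipid loading and injury behaved in 2 ways. Of 14 compared 7 were higher, Trem2, Apoe, Lgals3, Fabp5, Abcg1, Mmp12 and Itgax, with a median log2 ratio of 0.81. Lgals3, the gene of galectin 3, stood at 256 against 39.5 CPM. Spp1, often used to mark injury macrophages, stood at 6065 CPM in the high range, 13455 CPM in the low range, 12784 CPM in stromal barcodes and 1775 CPM in C1q-low leukocytes. Within the high range it ran from 0 to 1218 UMIs with a median of 11.5, and 3 barcodes held 51.3% of its UMIs. Gpnmb (24.0 against 28.6 CPM) was level, Arg1 was present in 3 barcodes and Chil4 in none. The entry for the green fluorescent protein, eGFP, was at 177 CPM in the high range, 827 CPM in the low one, 832 CPM in stromal barcodes and 81.2 CPM in C1q-low leukocytes.

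**Figure D3:**
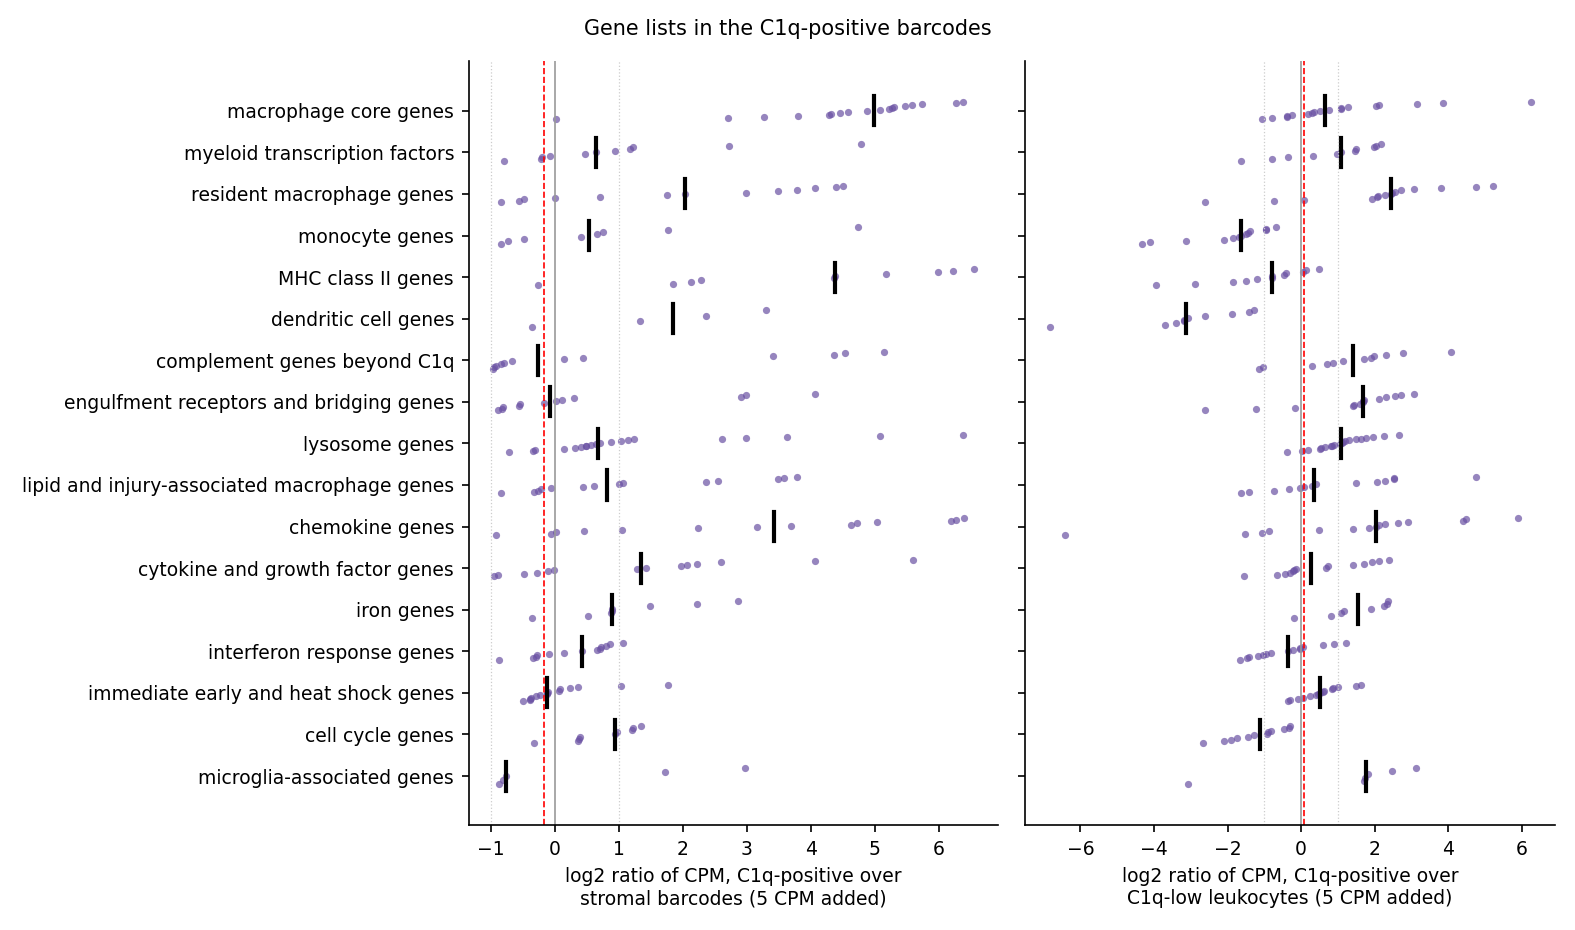
Each point is a listed gene with at least 10 CPM on either side, placed by its log2 ratio of CPM (5 CPM added) in the 290 C1q-positive barcodes over stromal barcodes (left) or over 46 C1q-low leukocytes (right). Black bars are list medians, the red dashed line is the median over all genes compared (-0.18 left, 0.07 right), and dotted lines mark 2-fold. Core, MHC class II and chemokine genes stand farthest right against stromal barcodes. Several dendritic cell genes at the left against leukocytes passed the minimum through the leukocytes alone. Most core genes at the right against stromal barcodes passed it through the C1q-positive barcodes alone.

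The 46 C1q-low leukocytes of the same library were a mixed set with T, NK, dendritic and neutrophil genes. The 2 sets also differ through their rules. Ptprc was present in all 46 by definition, but in 102 of the 290 and 87 of 134 in the high range. The stromal definition was met by none of the 46 by choice, but by 118 of the 290 and 42 of 134 in the high range. Markers of T and NK cells summed to 1989 CPM in the leukocytes, with a UMI in 23 of 46, and those of neutrophils and mast cells to 702 CPM, with a UMI in 7 of 46. In the 290 C1q-positive barcodes the former summed to 4.08 CPM, with 6 of 8 markers at 0 (Cd3d, Cd3g, Cd8a, Nkg7, Gzma and Ncr1), and the latter to 13.5 CPM. Markers of B and plasma cells did not separate the sets as far: they summed to 31.2 CPM in the 290, 55.8 CPM in the high range (a UMI in 41 of 134) and 73.8 CPM in the leukocytes, with Cd79a at 0 in each of these sets. Of 9356 genes compared 1823 (19.5%) stood 2-fold or more above and 1002 (10.7%) 2-fold or more below, and in the high range 1197 of 8960 (13.4%) stood above and 1072 (12%) below. Stromal marker UMIs summed to 25573 CPM in the C1q-positive barcodes, 11315 CPM in the high range and 5384 CPM in the leukocytes. Their part in the result was not tested.

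Against these leukocytes the highest ratios were those of Ms4a7, several chemokines, Pf4 and Apoe. Ms4a7 had no UMI in the 46 and was at least 33.7-fold higher in the C1q-positive barcodes when the 46 are set at 3 counts (60.2-fold in the high range). Ccl12 stood at 733 against 7.38 CPM and Ccl8 at 351 against 11.1 CPM, on 2 and 3 UMIs in the leukocytes, with ratios of 99.3 (27.4 to 821) and 31.7 (10.8 to 154). Apoe stood at 19572 against 716 CPM, a ratio of 27.3 (23.7 to 31.6), and Selenop, a selenium carrier, at 1854 against 129 CPM. Pf4 was at least 16.2-fold higher by the same floor. Of 18 macrophage core genes only 8 were higher and 1, Cd53, was lower, with a median log2 ratio of 0.64 beside 0.07 over all genes. In the high range 13 were higher and none lower, beside 13.4% and 12% of all genes. Of 14 cytokine genes compared 5 were higher and 1, Il1rn, was lower. Of 15 chemokine genes compared 10 were higher and 3 lower (Ccl5, Ccl9 and Cxcl9), and of 14 lipid and injury genes 6 were higher and 2 lower. Over all genes compared 19.5% were higher and 10.7% lower, and the 2 lower lipid and injury genes are near that share. C3ar1 (204 against 7.38 CPM), Adgre1 (228 against 11.1 CPM) and Ccl7 (485 against 18.5 CPM) followed. Ebf1, a factor of stromal and B cells, was picked by the same rule at 100.04 CPM, but it stood at 52.6 CPM in the high range and 188 CPM in stromal barcodes.

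Some picks rested on few barcodes. Retnla, a gene of alternatively activated macrophages, reached 142 CPM with 279 UMIs in 7 barcodes, 170 of them in 1 barcode, and had no UMI in the high range. Without that barcode it stood at 55.8 CPM. The leading 3 Retnla barcodes had 17, 29 and 17 C1q UMIs, 8 to 10 core genes, and 7, 5 and 3 UMIs of Ear2, a ribonuclease gene (chosen after its values were seen). H2-M2, a class I-like gene, was present in 19 barcodes, 16 of them in the high range, and the 3 leading barcodes held 47.7% of its 128 UMIs. It had no UMI in the leukocytes.

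On the low side were genes of the other leukocytes. Trbc2, Cd3g, Nkg7, Trbc1, Gzma, Ms4a4b, Ptprcap and Gzmb had no UMI in 290 barcodes; Trbc2, a T cell receptor constant gene, stood at 720 CPM in the leukocytes and was at least 470-fold lower by the floor of 3 counts. Ccl5 stood at 8.68 against 1173 CPM. Cd209a, a lectin of monocyte-derived dendritic cells, stood at 1.53 against 742 CPM, in 3 and 10 barcodes. S100a8 and S100a9 of neutrophils were at 1.02 CPM each against 339 and 299 CPM, which came from 2 and 3 of the 46. Of the dendritic cell genes Flt3, Clec9a, Itgae, Ccr7 and Siglech had no UMI. These, Cd209a and Xcr1 passed the minimum of 10 CPM through the leukocytes alone, so that a lower level was fixed by the filter. Zbtb46, below the minimum on both sides, stood at 7.66 against 3.69 CPM. Clec10a in the high range stood at 94.7 against 199 CPM, and less than 2-fold apart were Itgax at 36.8 against 70.1 CPM and Batf3 at 51.5 against 92.3 CPM. Of 13 monocyte genes 10 were lower and none higher, beside 10.7% and 19.5% of all genes, and Ccr2 stood at 188 against 373 CPM.

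By summed level, MHC class II genes did not set the C1q-positive barcodes apart from the mixed set of other leukocytes. Their median log2 ratio was -0.80 over all 290 and 0.042 in the high range, so the sign differed between the 2 sets. Lower genes were 5 and 3 of 12, beside 10.7% and 12% of all genes. H2-Aa stood at 5990 CPM in the high range and 5849 CPM in the leukocytes, whereas H2-Oa, a brake on peptide loading in B and dendritic cells, stood at 1.05 and 103 CPM. Resident genes did differ: 12 of 15 compared were higher, with a median log2 ratio of 2.43, and 13 of 16 in the high range. Over all genes 19.5% were higher, and 13.4% in the high range, which is the background for this list and the next ones. Mrc1 stood at 164 CPM in the high range against 11.1 CPM, Trem2 at 161 against 14.8 CPM, and Cx3cr1 at 278 against 22.1 CPM. Timd4 was lower, with no UMI in the C1q-positive barcodes and 25.8 CPM in 2 leukocytes, while F13a1 (9.19 against 18.5 CPM) and Cd9 (236 against 225 CPM) were not past 2-fold with 5 CPM added. Of 20 lysosome genes 11 were higher, and 17 in the high range, where Lgmn, an endopeptidase, stood at 1880 against 229 CPM. Of 14 engulfment genes 11 were higher, but 8 in the high range. Gas6, Pros1, Mfge8 and Lrp1 stood higher in stromal barcodes (327, 247, 335 and 294 CPM) than in the high range (145, 71.5, 83.1 and 77.9 CPM).

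The barcodes varied among themselves most in genes that also separate macrophages from stromal cells. After thinning to 1000 UMIs, which 271 of 290 reached, the Fano factor (variance over mean) was largest for Spp1 (31.1), Apoe (25.7), Cd74 (20.9), Malat1 (19.6) and Mgp (14.2) among genes found in at least 5% of them. Mgp, a matrix protein of stromal cells, averaged 5.83 UMIs in the high range and 24.9 under 10, and Igfbp7 3.43 and 17.5. Cd74 averaged 35.6 and 2.45, and Lyz2 12.7 and 1.27. Fxyd2, a sodium pump subunit of tubules, was in 9.59% of barcodes with up to 25 of 1000 UMIs in 1 of them. Within the high range alone Spp1 (30.4), Apoe (19.2) and Cd74 (12.2) led again, followed by Malat1, Mgp and Lyz2 and by the chemokines Ccl7 (7.69), Ccl8 (7.43), Ccl4 (7.34) and Cxcl2 (6.10).

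Markers said to separate macrophage origins were found in the same barcodes. In the high range 85 of 134 barcodes had a Ccr2 UMI, 71 a Mrc1 UMI and 42 both. Ccr2 and Cx3cr1 were together in 64, and H2-Aa and Mrc1 in 68 of the 71 with Mrc1. Cx3cr1 was present in 107 and H2-Aa in 129 of the 134. Genes this common overlap in many barcodes even when unrelated, and whether they were linked was not tested. Over all 290 thinned to 1000 UMIs, H2-Aa and Mrc1 were together in 8.12% (5.16% to 12.03%) and Ccr2 and Cx3cr1 in 4.06% (2.04% to 7.15%). Thinned to 2000 UMIs, the first share was 13.3%, so these shares depend on depth. A droplet holding 2 macrophages cannot be told apart from 1 cell with both transcripts.

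Splitting the high range by a Ccr2 UMI left 85 and 49 barcodes of like depth (medians of 6069 and 5943 UMIs). Without Ccr2, Ccl8 stood at 1403 CPM and with it at 182 CPM. Pf4 stood at 499 and 201 CPM, Stab1 at 146 and 65.0 CPM, and Apoe at 44197 and 27982 CPM, all higher without Ccr2. MHC class II went the other way, with H2-Aa at 4278 CPM without and 6922 CPM with Ccr2 and Cd74 at 23848 and 35023 CPM. C1qa (7051 and 6682 CPM) and Cx3cr1 (307 and 262 CPM) lay close together. For Ccl8, 1 barcode gave 20.3% of the high range's UMIs.

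By a Mrc1 UMI the high range fell into 71 and 63 barcodes (medians of 6668 and 5672 UMIs). With Mrc1, Pf4 stood at 427 CPM and without it at 143 CPM, Trem2 at 214 and 88.9 CPM, and Cbr2, a carbonyl reductase of resident macrophages, at 44.0 and 7.41 CPM. H2-Aa stood at 5089 and 7204 CPM. The 45 barcodes with a Ccl8 UMI had Ms4a7 at 1026 CPM against 473 CPM in the 89 without, Stab1 at 157 against 59.8 CPM and F13a1, the transglutaminase chain, at 36.2 against 4.85 CPM. Il1b went the other way, at 1077 and 2101 CPM. These splits use the same cells for choosing and reading genes and carry no test.

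**Figure D4:**
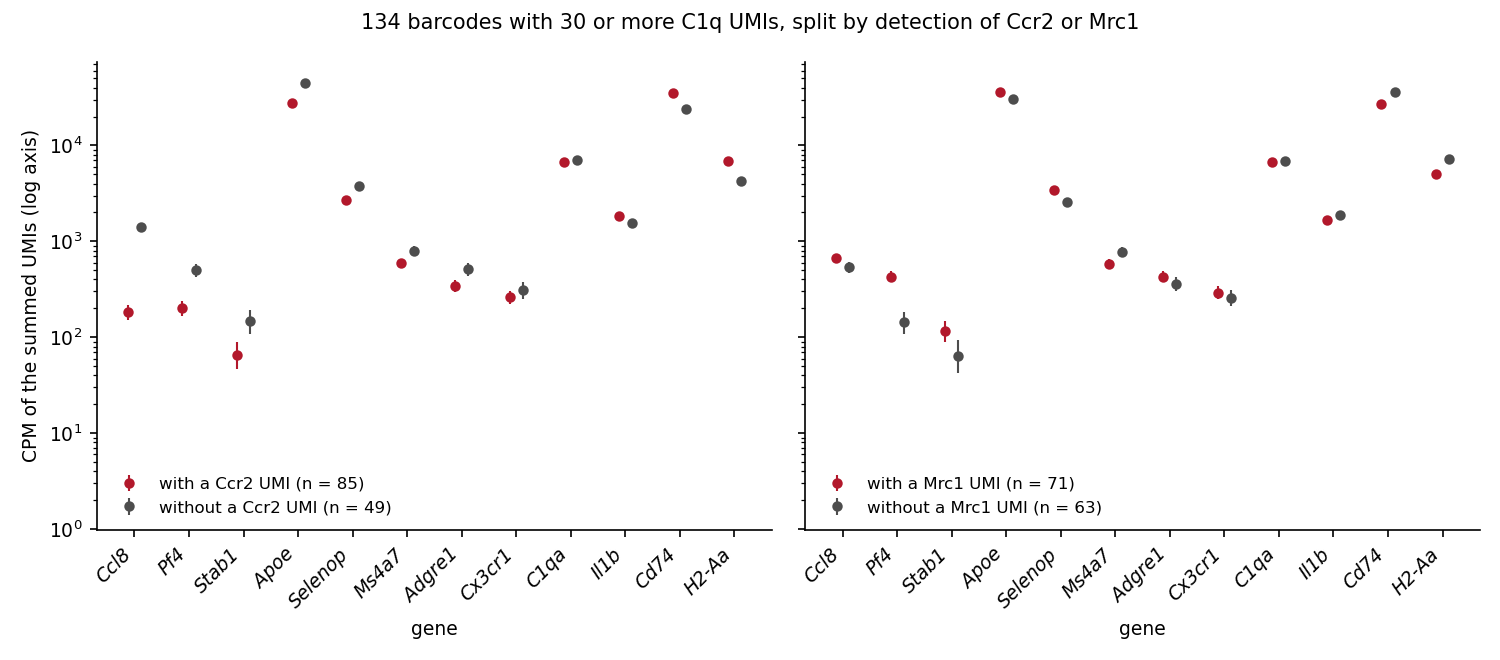
CPM of the summed UMIs (y axis, log) of 12 genes in the 134 barcodes with 30 or more C1q UMIs, split by the presence of a Ccr2 UMI (left, 85 with and 49 without) or a Mrc1 UMI (right, 71 with and 63 without). Bars are exact Poisson 95% intervals. Ccl8, Pf4, Stab1 and Apoe are higher without Ccr2, and H2-Aa and Cd74 are higher with it.

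The library held transcripts of both sexes. Of the 290 barcodes 96 had Xist and no Y-linked UMI, 52 a Y-linked UMI and no Xist, 40 both and 102 neither. In the high range C1qa stood at 6790 CPM in the 52 barcodes with Xist alone and 7173 CPM in the 35 with Y-linked genes alone. Lyz2 (12539 and 13124 CPM) and Apoe (35471 and 34711 CPM) were close too, while Ccr2 stood at 277 and 440 CPM. The 15 barcodes of that range with both had a median of 9561 UMIs and C1qa at 4115 CPM.

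The 1 barcode that met the rule in the library labelled UUO had 593 UMIs and 354 genes. It held 11 C1q UMIs, 56 of Cd74, 10 of H2-Aa and 15 of H2-Ab1, 3 of the 18 core genes, and none of Col1a1, Pdgfra, Pdgfrb or Spp1. In that library Cd74 was present in 14.0% and C1qa in 1.62% of retained barcodes. With 1 barcode no level can be set beside the library labelled sham, and fewer macrophages captured and less RNA per cell cannot be told apart.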

How the data were processed

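Each library was deposited as a matrix of barcodes by 53698 gene entries holding expected counts of UMIs, made by the authors with alevin of Salmon 0.13.1 on mm10, per the submitters' processing notes. Alevin divides UMIs that fit several genes, and 92.3% and 91.2% of nonzero values were whole (labelled sham and UUO). The step that picked barcodes for the deposited matrices is not stated in the labels. Counts were summed over barcodes, scaled to CPM, and rounded for intervals: exact Poisson for levels, conditional binomial for ratios, Clopper-Pearson for shares (all 95%). Log2 ratios had 5 CPM added. A count of 0 was set at 3 counts for bounds. Doublet scores followed Scrublet (2 simulated doublets per barcode, rate 0.06; highest scores at 0.8% per 1000 barcodes), and none were removed except as an alternative. The calculations were tested on simulated counts. Python 3.11.15, NumPy 2.4.6 and SciPy 1.17.1 were used. Genes named without a list were, at 50 CPM and 50 counts or more, the 15 highest ratios over stromal barcodes, the 12 highest and 12 lowest over leukocytes, or the 12 largest Fano factors among genes in at least 5% of thinned barcodes, leaving out rule, mitochondrial and ribosomal protein genes. The barcodes, lists, ranges and splits were chosen with earlier results of these data known.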

Additional observations from a re-analysis of the deposited data

How the results depend on the processing

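The number of C1q-positive barcodes (290) was 23 when those with 4 or more of 10 stromal markers were left out, 134 with 30 or more C1q UMIs, 190 with a stromal share under the stromal barcodes' 5th percentile and 187 with the rule applied after thinning (172 of them among the 290). The last 3 were added after seeing the data. Those with at least 3 core genes (279) were 22 and 134 under the first 2 of these. Genes at least 2-fold higher than in stromal barcodes (546) were 1972 without barcodes of 4 or more stromal markers, 860 at 30 or more C1q UMIs, 964 at low stromal share, 312 with 20 CPM added and 253 at a minimum of 50 CPM. Lower genes (159) were 997 at 10 or more C1q UMIs, 416 without the highest doublet scores, 4418, 1638 and 1922 under the same 3 choices of barcodes, 383 with 1 CPM added, 50 with 20 CPM added, 87 at 50 CPM, 883 with equal weight per barcode, 73 after centring the median ratio, 532 in barcodes with Xist alone and 1182 with Y-linked genes alone. Against leukocytes higher genes (1823) were 1197 at 30 or more C1q UMIs, 1018 at low stromal share, 736 with 20 CPM added, 652 at 50 CPM and 3164 with Y-linked genes alone, and lower genes (1002) were 3571 without barcodes of 4 or more stromal markers, 418 with 20 CPM added, 392 at 50 CPM, 1871 with Xist alone and 1989 with Y-linked genes alone. The share with H2-Aa and Mrc1 (8.12%) was 13.3% at 2000 UMIs.

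The sign turned in these cases. Against stromal barcodes the median log2 ratio of dendritic cell genes was -0.036 over all genes with a count, of cytokine genes -0.73 without barcodes of 4 or more stromal markers and -0.018 at 50 CPM, of immediate early genes 0.070 after centring, and of cell cycle genes -0.31 with Y-linked genes alone. Against leukocytes the median of MHC class II genes was 0.042 at 30 or more C1q UMIs and 0.14 at low stromal share, and S100a8 stood at 0.63 with Y-linked genes alone. The causes were not tested. Of the named genes, all 15 stayed at least 2-fold higher than in stromal barcodes under the alternatives run, and 18 of 24 stayed past 2-fold against leukocytes, the exceptions being Retnla, H2-M2, Gzma, Gzmb, S100a8 and S100a9. No paired analysis was possible because each group is 1 library.

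The library's 290 barcodes limit the shares: no UMI in any of them still allows 1.03% of barcodes with a UMI at a limit of 3 counts. With 46 leukocytes, 1 UMI there is worth 3.69 CPM. Counts of genes that have similar copies or share their span with another gene are uncertain. Doublets and free RNA were not removed from the main values.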
